A study of Mus musculus with 18 samples.

Results

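The genes described here encode the killing equipment of cytotoxic lymphocytes. They are the granzymes Gzma, Gzmb, Gzmc, Gzmk and Gzmm, the pore former Prf1, the granule proteins Nkg7 and Srgn, and the death ligand Fasl. They were chosen by name, as 9 of the 55487 genes counted. The data are bulk RNA-seq read counts of CD8 T cells that were isolated from wild-type C57BL/6J mice, with spleen and lymph nodes as the source. The cells had been sorted by surface 41BB (CD137, the product of Tnfrsf9) into 41BB+ cells, called Tpam in the study, and 41BB- cells, called conventional. Both populations were taken directly after the sort (0 h, no activation) and after 24 h and 72 h of culture with beads that carry antibodies to CD3 and CD28. The cultures were kept in IMDM medium with serum and antibiotics, the beads were present from seeding on, and an unstimulated culture was not analysed here. Each of the 6 groups had 3 libraries, which the study describes as biological replicates. The sources used here do not say whether a replicate was 1 mouse or a pool.

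A killer T cell stores perforin and granzymes in secretory granules and releases them at its contact with a target cell. Perforin opens pores in the target membrane, and granzymes, a family of serine proteases, enter through them and cleave proteins inside the target. Serglycin, the product of Srgn, is the proteoglycan on which the proteases are packed, and Nkg7 is a granule membrane protein that helps granules to be released. Fas ligand acts by a separate route, through the death receptor Fas. In mouse CD8 T cells, naive cells hold little granzyme B, and its mRNA and protein build up after stimulation.

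Library totals ran from 3085241 to 4239795 counts, and 13150 genes passed the filter on low counts. Among the 9 genes, 8 passed it, and Gzmk did not. Tnfrsf9 averaged 389, 138 and 21.2 CPM (counts divided by the total of the library and multiplied by 1e+06) at 0, 24 and 72 h in 41BB+ cells, against 6.74, 183 and 52.4 CPM in 41BB- cells. All 6 CD8 T cell markers were detected in every group, and Cd4 had at most 4 counts in any library. The summed level of 4 CD4 T cell markers was 3.24 to 6.29 CPM in 41BB+ cells and 1.81 to 3.10 CPM in 41BB- cells at 0 h, and 30.2 to 53.8 CPM and 47.7 to 54.1 CPM at 72 h. At 72 h Zbtb7b had 71, 97 and 75 counts in 41BB+ cells and 135, 158 and 180 in 41BB- cells, and Foxp3 had 70, 87 and 36 in 41BB+ cells and 30, 12 and 17 in 41BB- cells. Replicate 2 of the 41BB+ cells at 24 h stood apart. Its summed level was 13.5 CPM for 9 NK cell markers and 62.0 CPM for 6 myeloid or dendritic cell markers, against at most 1.98 and 4.35 CPM in the other 2 libraries of its group. Of the NK markers 6 of 9 had counts in that group, and Klra4, Klra8 and Klra9 had none. In replicate 2 the NK markers with the most counts were Tyrobp (17), Fcer1g (15) and Ncr1 (9). Of the myeloid markers, Lyz2 had 173 and Csf1r 41 counts in this library. Values of Gzma, Gzmb, Gzmc and Prf1 that rest on this library are given with and without it. In the 41BB- group at 24 h, replicate 2 had the highest myeloid sum, 12.1 CPM. At 0 h the myeloid sum was 13.7 to 29.7 CPM in 41BB+ cells and 4.83 to 9.40 CPM in 41BB- cells, with no overlap. All 6 markers had counts in 41BB+ cells and 5 in 41BB- cells, where C1qa had none. Itgax had the most counts of them, 62, 22 and 94 in 41BB+ cells and 17, 19 and 12 in 41BB- cells. Csf1r had 10, 11 and 8 against 1, 5 and 3, and Lyz2 had 2, 4 and 9 against 1, 1 and 0. The NK sum at 0 h was 5.01 to 8.30 CPM in 41BB+ cells and 2.27 to 6.20 CPM in 41BB- cells and overlapped, as did that of 6 gamma-delta or innate-like T cell markers (8.84 to 12.9 and 6.03 to 13.0 CPM). The sum of 5 mast cell or basophil markers was 11.2 to 18.3 CPM in 41BB+ cells and 1.24 to 6.48 CPM in 41BB- cells, most of it Kit, with Mcpt8 and Ms4a2 at 0 in both. The sum of 5 B cell markers was 6.01 to 9.13 CPM in 41BB+ cells, where Cd79a was at 0, and 12.4 to 15.9 CPM in 41BB- cells. Cd79b had 14, 15 and 12 counts in 41BB+ cells and 36, 38 and 39 in 41BB- cells. Pax5 had 15, 3 and 11 counts against 4, 7 and 11. The part of these other cells in the results was not tested. In bulk RNA, fewer cells of a type and less RNA per cell cannot be told apart.

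The upstream sequences of Gzmb, Gzmc and Prf1 are shown because Gzmb and Gzmc, neighbours in the granzyme cluster of chromosome 14, were both higher at 72 h than at 0 h, while Prf1 on chromosome 10 was lower. Each is the 250 bases before the RefSeq transcription start on GRCm38.p6, read 5′ to 3′ on the strand of the gene. They cover chr14:56262335-56262584 (minus strand) for Gzmb, chr14:56234658-56234907 (minus strand) for Gzmc and chr10:61297586-61297835 (plus strand) for Prf1. Capitals mark matches on either strand to the Runx core TGTGGT, the AP-1 site TGANTCA and the cyclic AMP response element TGACGTCA.
Gzmb: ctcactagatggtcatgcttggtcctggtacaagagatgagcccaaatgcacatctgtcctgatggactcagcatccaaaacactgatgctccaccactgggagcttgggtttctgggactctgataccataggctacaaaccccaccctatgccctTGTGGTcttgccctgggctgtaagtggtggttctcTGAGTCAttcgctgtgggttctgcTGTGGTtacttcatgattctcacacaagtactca
Gzmc: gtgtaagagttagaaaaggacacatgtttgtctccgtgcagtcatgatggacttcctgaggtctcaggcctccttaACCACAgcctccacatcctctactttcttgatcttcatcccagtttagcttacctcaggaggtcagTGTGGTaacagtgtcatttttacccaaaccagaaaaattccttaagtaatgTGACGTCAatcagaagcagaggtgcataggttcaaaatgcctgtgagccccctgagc
Prf1: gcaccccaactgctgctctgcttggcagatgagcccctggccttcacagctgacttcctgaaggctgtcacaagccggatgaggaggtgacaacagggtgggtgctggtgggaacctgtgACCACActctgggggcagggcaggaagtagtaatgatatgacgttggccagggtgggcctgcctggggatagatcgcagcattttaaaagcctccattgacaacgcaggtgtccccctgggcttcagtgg
The Gzmb window held 1 AP-1 match, 58 bases before the start, and 2 Runx matches, 93 and 34 bases before it. Gzmc had a Runx match on each strand, at 174 and 108 bases, and the response element at 57 bases. Prf1 had 1 Runx match, at 130 bases. Over all 32851 RefSeq windows of this length, 14% held the Runx core, 6.75% the AP-1 site and 1.55% the response element. The 9 genes have 11 such windows, and 7 of these, from 7 genes, held the Runx core. The T-box core AGGTGTGA was found in Nkg7 alone among the 9 genes and in 1.12% of all windows, and the shorter GGTGTG, which lies within it, in 4 of the 11 windows and 16.3% of all. The STAT motif TTCNNNGAA was in 2 of 11 (7.02% of all), the NFAT core GGAAA in 5 of 11 (55.6% of all) and the E-box CANNTG in 10 of 11 (66.2% of all). These matches describe letters and do not show binding.

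Freshly sorted 41BB+ cells already had granzyme B mRNA, while 41BB- cells had almost none and overtook them in culture. Gzmb (chr14:56258838-56262260, minus strand, in GENCODE M21 on GRCm38) encodes the granzyme that cuts after aspartate and activates caspases. At 0 h its counts were 228, 264 and 238 in the 41BB+ libraries, against 4, 2 and 2 in the 41BB- libraries. At 24 h they were 348, 709 and 550 in 41BB+ cells and 62, 87 and 127 in 41BB- cells. At 72 h they were 932, 1222 and 433 in 41BB+ cells, against 2766, 2046 and 2082 in 41BB- cells. The populations did not overlap at any time, with 41BB+ cells above at 0 and 24 h and below at 72 h. Mean levels were 68.4 ± 6.56, 142 ± 44.7 and 243 ± 120 CPM at 0, 24 and 72 h in 41BB+ cells, against 0.83 ± 0.355, 25.5 ± 9.19 and 605 ± 119 CPM in 41BB- cells (SD, n = 3 each).

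The ratio of mean CPM, 41BB+ over 41BB-, was 82.4 at 0 h, 5.59 at 24 h and 0.401 at 72 h. The fitted log2 fold changes were 6.29 (SE 0.70, adjusted p = 6.77e-06) at 0 h and 2.60 (SE 0.39, adjusted p = 0.00282) at 24 h. Without the 41BB+ library that stood apart, the value at 24 h was 2.34 (adjusted p = 0.00841). At 72 h the log2 fold change was -1.29 (SE 0.34, adjusted p = 0.0164). This last call is less secure: leaving out 1 library of the 6 gave values from -1.60 to -0.90, and the adjusted p passed 0.05 without replicate 1 of the 41BB+ cells (0.0515), replicate 1 of the 41BB- cells (0.0744) or replicate 2 of the 41BB- cells (0.0520). It was also lost with no filter on low counts (0.0527) and with the 6 libraries fitted alone (0.140).

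Gzmb was higher after culture in both populations, by different amounts. Between 0 and 24 h its mRNA rose 2.08-fold in 41BB+ cells (log2 fold change 1.11, SE 0.36, adjusted p = 0.0276) and 30.7-fold in 41BB- cells (4.80, SE 0.79, adjusted p = 0.000151), as ratios of mean CPM. The rise in 41BB+ cells lost its call with no filter (adjusted p = 0.0572) and without replicate 1 or 3 of 0 h (0.0669 and 0.0709) or replicate 2 or 3 of 24 h (0.0826 and 0.0507). The rise in 41BB- cells lost its call under limma voom (adjusted p = 0.0625). From 24 to 72 h it was 1.70-fold higher in 41BB+ cells, where the libraries overlapped between times and the test was not passed (0.83, SE 0.34, adjusted p = 0.0572). Without replicate 3 of the 72 h cells, the lowest of its group, that value was 1.17 (adjusted p = 0.00155), and without the 24 h library that stood apart it was 1.09 (adjusted p = 0.0285). In 41BB- cells Gzmb rose a further 23.7-fold from 24 to 72 h (4.72, SE 0.40, adjusted p = 5.92e-07). Over the whole 72 h the rise was 3.55-fold in 41BB+ cells (1.94, SE 0.36, adjusted p = 0.000524) and 728-fold in 41BB- cells (9.52, SE 0.62, adjusted p = 2.44e-08). The 41BB- value rests on 8 counts at 0 h, whose pooled level has a 95% counting interval of 0.359 to 1.64 CPM. The difference between the populations in their change was -3.69 log2 units from 0 to 24 h (SE 0.95, adjusted p = 0.0128) and -3.89 from 24 to 72 h (SE 0.51, adjusted p = 0.000177), the first of these lost under limma voom (adjusted p = 0.251). Without the library that stood apart they were -3.93 (adjusted p = 0.00837) and -3.57 (adjusted p = 0.000475).

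**Figure D1:**
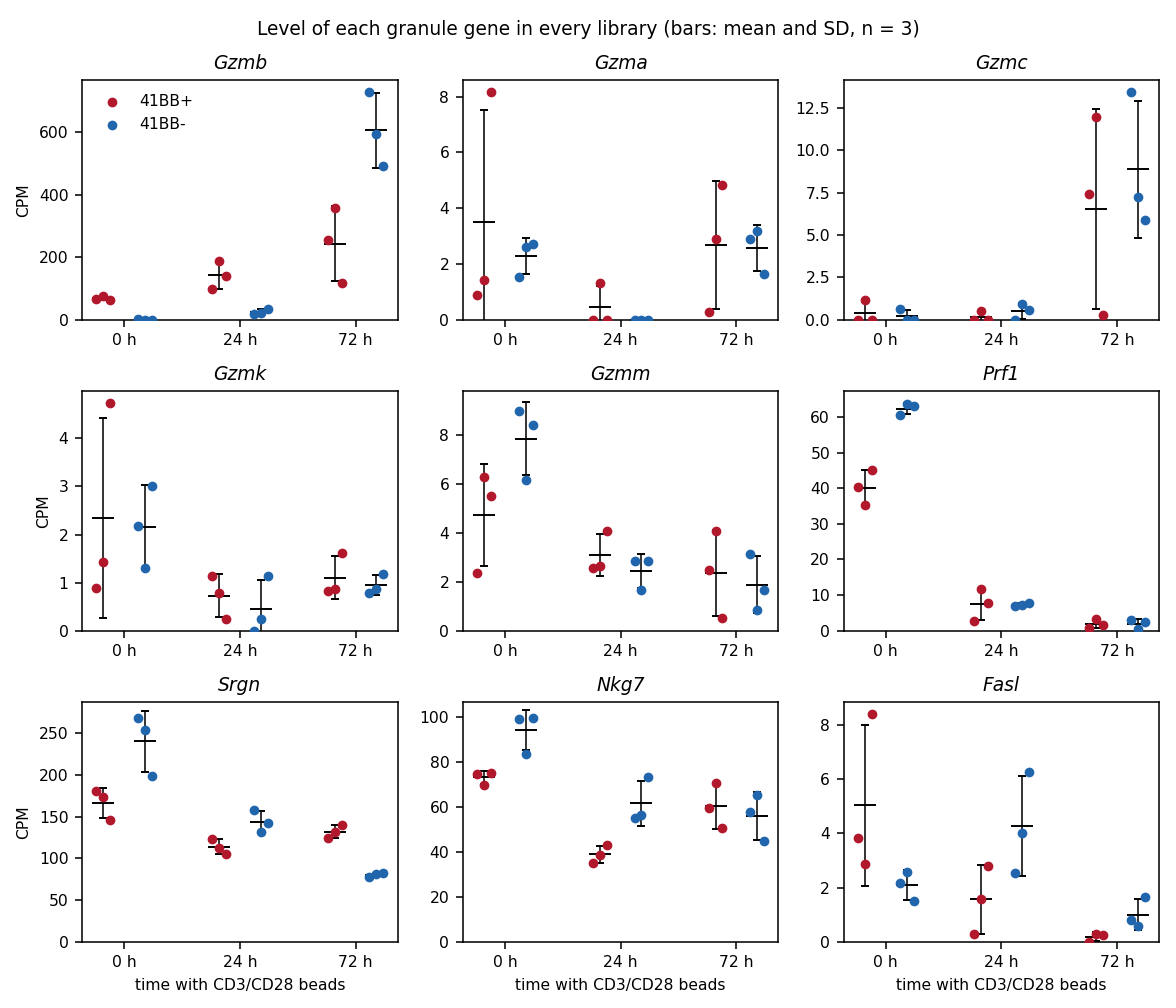
Level of each gene in CPM (vertical axes, from 0) at 0, 24 and 72 h (horizontal axes, evenly spaced categories), with 1 point per library. Group means are dashes with SD bars cut at 0. Gzmb in 41BB+ cells starts at 68.4 CPM and ends at 243 CPM, while in 41BB- cells it starts at 0.83 CPM and ends at 605 CPM, and Prf1 falls in both populations.

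The other granzymes stayed far below Gzmb. Gzmc, a granzyme of mouse that is encoded beside Gzmb (chr14:56231441-56234656, minus strand), had 0, 4 and 0 counts at 0 h and 0, 2 and 0 counts at 24 h in 41BB+ cells. Its 41BB- libraries had 2, 0 and 0 counts at 0 h and 0, 4 and 2 counts at 24 h. At 72 h the counts were 27, 41 and 1 in 41BB+ cells and 51, 25 and 25 in 41BB- cells. All 3 libraries of 41BB- cells and 2 of the 3 of 41BB+ cells thus lay above every earlier library of their population. Replicate 3 of the 41BB+ cells, with 1 count, also had the lowest Gzmb and Gzmm of its group. Gzmc rose from 24 to 72 h in 41BB+ cells (adjusted p = 0.00144), where the ratio of pooled CPM was 35.8 with a 95% counting interval of 9.55 to 302. Both counts at 24 h in that population were in the library that stood apart, and the call held without it (adjusted p = 0.00238). Over the same interval it rose 17.6-fold in 41BB- cells (log2 fold change 4.10, SE 1.07, adjusted p = 0.00306). The populations overlapped at 72 h (log2 fold change of 41BB+ over 41BB- -0.42, SE 0.84, adjusted p = 0.800). In the Gzmc transcripts, 4.14% of 50-base windows are shared with Gzmd, Gzme or Gzmg, so a small part of its reads could be split between copies.

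Gzma (chr13:113093825-113100981, minus strand), which cuts after basic residues, had 3, 5 and 31 counts at 0 h, 0, 5 and 0 at 24 h and 1, 10 and 18 at 72 h in 41BB+ cells. The 41BB- libraries had 5, 8 and 9 counts at 0 h, 0, 0 and 0 at 24 h and 11, 11 and 7 at 72 h. The gene was thus close to absent from every library at 24 h but the one that stood apart, which held all 5 of its counts. In 41BB- cells Gzma was lower at 24 h than at 0 h (adjusted p = 0.00437) and higher at 72 h than at 24 h (adjusted p = 0.0041). With 3 counts over the group put in place of the 0 at 24 h, these folds were 8.29 and 9.17, which are lower bounds and not estimates. The bounds leave out the error of counting at the other time. There the 95% counting intervals were 13.8 to 33.3 counts at 0 h and 19.4 to 41.6 counts at 72 h. In 41BB+ cells the fall from 0 to 24 h passed the test (log2 fold change -2.85, SE 1.10, adjusted p = 0.0468) but not without replicate 3 of 0 h (-1.21, adjusted p = 0.506), without replicate 1 or 3 of 24 h (0.163 and 0.175), with the replicate block (0.0657) or by DESeq2 (0.0641). From 24 to 72 h the value in 41BB+ cells was 2.57 (SE 1.12, adjusted p = 0.0566), and it passed without replicate 1 of 72 h (3.12, adjusted p = 0.0220). Without the library that stood apart, 41BB+ cells had 0 counts of Gzma at 24 h, and both the fall to 24 h (adjusted p = 0.00920) and the rise from 24 to 72 h (adjusted p = 0.00733) were called. The populations overlapped at all 3 times, and none of the 3 tests between them was passed.

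Gzmm (chr10:79689020-79695261, plus strand), which prefers methionine and similar residues, had 8, 22 and 21 counts at 0 h, 9, 10 and 16 at 24 h and 9, 14 and 2 at 72 h in 41BB+ cells. It had 29, 19 and 28 counts at 0 h, 9, 7 and 10 at 24 h and 12, 3 and 7 at 72 h in 41BB- cells. In 41BB- cells each library at 24 and 72 h lay below each at 0 h, and Gzmm fell from 0 to 24 h (log2 fold change -1.76, SE 0.60, adjusted p = 0.0149) and over the whole 72 h (-1.96, SE 0.61, adjusted p = 0.01). The first of these falls was lost without replicate 2 of 24 h (adjusted p = 0.0778). In 41BB+ cells the value over 72 h was -0.90 (SE 0.61, adjusted p = 0.237), and the difference between the populations in this change was not called (1.06, SE 0.87, adjusted p = 0.358). Gzmk (chr13:113171608-113225908, minus strand), another granzyme that cuts after basic residues, had 3, 5 and 18 counts at 0 h, 4, 3 and 1 at 24 h and 3, 3 and 6 at 72 h in 41BB+ cells. Its 41BB- counts were 7, 4 and 10 at 0 h, 0, 1 and 4 at 24 h and 3, 3 and 5 at 72 h. It was too low to be tested. The same 41BB+ library at 0 h, replicate 3, had the highest Gzma, Gzmk and Fasl counts of its group. Of 13 other genes of the chromosome 14 protease cluster, none passed the filter, and Gzmf, the one with most counts, had at most 8 over any group.

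Perforin mRNA took the opposite course from granzyme B and fell in both populations. Prf1 (chr10:61297833-61304680, plus strand) had 137, 123 and 171 counts at 0 h, 10, 44 and 30 at 24 h and 3, 11 and 6 at 72 h in 41BB+ cells. For 41BB- cells the counts were 195, 196 and 209 at 0 h, 22, 31 and 27 at 24 h and 11, 2 and 11 at 72 h. Mean levels were 40.2 ± 4.90, 7.39 ± 4.42 and 1.88 ± 1.21 CPM in 41BB+ cells and 62.3 ± 1.67, 7.34 ± 0.325 and 2.02 ± 1.26 CPM in 41BB- cells at 0, 24 and 72 h (SD, n = 3 each). Every library at 24 or 72 h was below every library at 0 h. The log2 fold changes from 0 to 24 h were -2.38 (SE 0.33, adjusted p = 2.41e-06) in 41BB+ cells and -3.16 (SE 0.34, adjusted p = 7.17e-09) in 41BB- cells. Between 24 and 72 h they were -1.92 (SE 0.46, adjusted p = 0.000898) in 41BB+ cells and -1.66 (SE 0.45, adjusted p = 0.0037) in 41BB- cells. Without the 41BB+ library that stood apart, the values in 41BB+ cells were -2.80 (adjusted p = 1.04e-06) and -1.42 (adjusted p = 0.0158). The test of a difference between the populations was passed for neither interval (0.78, SE 0.47, adjusted p = 0.268, and -0.26, SE 0.67, adjusted p = 0.853).

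At 0 h all 3 Prf1 levels of 41BB+ cells, from 35.2 to 45.0 CPM, were below those of 41BB- cells, from 60.4 to 63.5 CPM. The log2 fold change of -0.65 (SE 0.29, adjusted p = 0.0819) did not pass the test. It did with the experiment number as a block within each time (adjusted p = 0.0495), with the 6 libraries alone (0.00156) and under limma voom (0.00238). At 24 and 72 h the populations overlapped, with log2 fold changes of 0.14 (SE 0.37) and -0.12 (SE 0.55). Without the 24 h library that stood apart, which had the most Prf1 counts of its group, the value at 24 h was -0.36 (adjusted p = 0.904).

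Serglycin mRNA was the most counted of the 9 genes at 0 h and changed its order between the populations. Srgn (chr10:62493833-62527451, minus strand) had 611, 606 and 555 counts at 0 h, 434, 424 and 412 at 24 h and 455, 450 and 521 at 72 h in 41BB+ cells. The 41BB- counts were 865, 783 and 659 at 0 h, 493, 558 and 501 at 24 h and 294, 279 and 349 at 72 h. Its levels were 166 ± 18.0, 114 ± 8.91 and 132 ± 7.80 CPM in 41BB+ cells, against 240 ± 36.6, 144 ± 12.8 and 80.3 ± 2.53 CPM in 41BB- cells, at 0, 24 and 72 h (SD, n = 3 each). The libraries of the populations did not overlap at any time: 41BB+ cells were below at 0 and 24 h and above at 72 h. Srgn was lower in 41BB+ cells at 0 h (log2 fold change -0.54, SE 0.12, adjusted p = 0.000577) and higher in them at 72 h (0.75, SE 0.12, adjusted p = 7.73e-05). At 24 h the value was -0.23 (SE 0.12, adjusted p = 0.489). In 41BB- cells it fell over both intervals (-0.82, SE 0.12, adjusted p = 1.55e-06, then -0.69, SE 0.12, adjusted p = 4.81e-05). In 41BB+ cells it fell from 0 to 24 h (-0.50, SE 0.12, adjusted p = 0.00204) and was higher again at 72 h by a margin just short of the test (0.29, SE 0.12, adjusted p = 0.0512). This rise was called with the replicate block (0.0462), with RLE factors (0.0420) and with the compared groups alone (0.0455). It was also called in 2 of 6 fits without 1 library, replicate 1 of 24 h (0.0359) or of 72 h (0.0403). DESeq2 (0.0504) and the fit with no filter (0.29) did not call it. The change from 24 to 72 h differed between the populations by 0.98 log2 units (SE 0.17, adjusted p = 0.000201). At 0 h the summed level of 6 CD8 T cell markers was also lower in 41BB+ cells, 1996 to 2199 CPM, than in 41BB- cells, 2837 to 3214 CPM. Among the 6, Cd8b1 had 1222, 1449 and 1603 counts in 41BB+ cells against 2482, 2785 and 3186 in 41BB- cells. Trac was not lower, with 1242, 1283 and 1269 counts against 1080, 966 and 1095. At 24 h the sum of the 6 was 1102 to 1211 CPM in 41BB+ cells and 1476 to 1505 CPM in 41BB- cells. These values lay below every library of 0 h in both populations. At 72 h the sum was 2110 to 2473 CPM and 1745 to 2158 CPM and overlapped. Its part in the Srgn, Nkg7 and Prf1 values was not tested.

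Nkg7 (chr7:43437073-43438249, plus strand) had 253, 244 and 285 counts at 0 h, 124, 145 and 168 at 24 h and 216, 243 and 188 at 72 h in 41BB+ cells. Counts in 41BB- cells were 319, 258 and 330 at 0 h, 173, 238 and 257 at 24 h and 219, 225 and 189 at 72 h. In 41BB+ cells the level dipped, at 73.1 ± 2.86, 38.8 ± 3.92 and 60.2 ± 10.1 CPM, while in 41BB- cells it stayed down after 24 h, at 94.0 ± 8.99, 61.5 ± 9.98 and 55.9 ± 10.5 CPM (SD, n = 3 each). From 0 to 24 h Nkg7 fell in 41BB+ cells (log2 fold change -0.86, SE 0.16, adjusted p = 0.000135) and in 41BB- cells (-0.69, SE 0.16, adjusted p = 0.000513). From 24 to 72 h it rose in 41BB+ cells (0.70, SE 0.16, adjusted p = 0.000744), against a value of 0.01 (SE 0.16, adjusted p = 0.975) in 41BB- cells. The difference between these 2 changes was 0.69 (SE 0.23, adjusted p = 0.0369), and leaving out 1 of 12 libraries gave adjusted p above 0.05 in 4 cases: replicate 1 of the 41BB+ cells at 24 h (0.0587), replicate 3 of the 41BB- cells at 24 h (0.0756), replicate 2 of the 41BB+ cells at 72 h (0.0762) and replicate 3 of the 41BB- cells at 72 h (0.0713). Over the whole 72 h Nkg7 fell in 41BB- cells (-0.68, SE 0.16, adjusted p = 0.000815), against -0.16 (SE 0.16, adjusted p = 0.419) in 41BB+ cells. The difference in this change was not called (0.52, SE 0.22, adjusted p = 0.0659). Between populations, Nkg7 was below the 41BB- libraries in every 41BB+ library at 0 and 24 h. The log2 fold changes there, -0.38 (SE 0.16, adjusted p = 0.0579) and -0.54 (SE 0.16, adjusted p = 0.0776), did not pass the test, while the block within each time gave -0.37 (adjusted p = 0.0252) and -0.54 (adjusted p = 0.0202). The difference at 0 h was also called by DESeq2 (-0.42, adjusted p = 0.0366), with RLE factors (-0.42, 0.0327), with the 6 libraries alone (-0.39, 0.0192), under limma voom (-0.36, 0.0335) and without replicate 2 of the 41BB- cells (-0.47, 0.0372).

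Fas ligand mRNA was scarce, with at most 32 counts in a library. Fasl (chr1:161780689-161788495, minus strand) had 13, 10 and 32 counts at 0 h, 1, 6 and 11 at 24 h and 0, 1 and 1 at 72 h in 41BB+ cells. The 41BB- libraries held 7, 8 and 5 counts at 0 h, 8, 17 and 22 at 24 h and 3, 2 and 7 at 72 h. The 41BB+ libraries were above the 41BB- ones at 0 h, overlapped them at 24 h and were below them at 72 h, and none of these 3 differences passed the test. The log2 fold changes were 1.26 (SE 0.71, adjusted p = 0.172) at 0 h and -1.30 (SE 0.72, adjusted p = 0.502) at 24 h. At 72 h, where 41BB+ cells had 2 counts in all, the level was 5.64 times lower in 41BB+ cells, with a 95% counting interval of 1.26 to 51.9 (adjusted p = 0.160). Over the 72 h Fasl fell in 41BB+ cells (adjusted p = 0.000374), where the level at 0 h was 27.8 times that at 72 h with a 95% counting interval of 7.33 to 235. In 41BB- cells the value over 72 h was -0.93 (SE 0.79, adjusted p = 0.347). The difference between these changes was -3.50 (SE 1.30, adjusted p = 0.031). It was lost with no filter (adjusted p = 0.0751), under limma voom (0.122) and without replicate 3 of the 41BB+ cells at 0 h (0.11), replicate 1 or 3 of the 41BB- cells at 0 h (0.0541 and 0.0643), replicate 1 of the 41BB+ cells at 72 h (0.0915) or replicate 3 of the 41BB- cells at 72 h (0.127). From 0 to 24 h the values were -1.61 (SE 0.72, adjusted p = 0.0844) in 41BB+ cells and 0.95 (SE 0.71, adjusted p = 0.261) in 41BB- cells. Their difference was -2.56 (SE 1.01, adjusted p = 0.0695). None of these was called. The 41BB+ fall and the difference were called under limma voom (0.0368 and 0.0364), and the difference without replicate 3 of the 41BB+ cells at 24 h (0.0442). Between 24 and 72 h Fasl fell in 41BB+ cells (8.66 times lower, counting interval 2.07 to 77.0, adjusted p = 0.024) and in 41BB- cells (log2 fold change -1.88, SE 0.76, adjusted p = 0.0481). The call in 41BB+ cells was lost without replicate 3 of 24 h (0.153), replicate 1 of 72 h (0.0943) and under limma voom (0.148), and that in 41BB- cells without replicates 2 or 3 of 24 h (0.0773 and 0.165) or 1 or 2 of 72 h (0.126 and 0.136), by DESeq2 (0.0547), with no filter (0.0904) and under limma voom (0.0566).

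Counted over the 8 genes tested, Gzmb was higher and Srgn lower in 41BB+ cells at 0 h, Gzmb was higher at 24 h, and Srgn was higher and Gzmb lower at 72 h. At 0 h 39.5% of all tested genes were called (22.2% higher and 17.3% lower), at 24 h 2.75% (1.67% higher and 1.07% lower) and at 72 h 18.9% (6.71% higher and 12.2% lower). The counts of 2 and 2 genes of 8 at 0 and 72 h are thus near the background, and at 24 h the single gene called was Gzmb. With the block within each time the counts were 4, 2 and 2, and 41.7%, 4.39% and 22.6% of all genes were called.

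From 0 to 24 h, 5 of 8 genes were called in 41BB+ cells, where 34.6% of all genes were called (18.1% higher and 16.5% lower). Gzmb was higher, and Gzma, Prf1, Nkg7 and Srgn were lower. Without replicate 3 of 0 h or replicate 3 of 24 h the count was 3. In 41BB- cells 6 of 8 were called, against 56.6% of all genes (29% higher and 27.6% lower): Gzmb was higher, and Gzma, Gzmm, Prf1, Nkg7 and Srgn were lower. From 24 to 72 h, 4 of 8 were called in 41BB+ cells, with Gzmc and Nkg7 higher and Prf1 and Fasl lower, against 52.5% of all genes (26.2% higher and 26.3% lower). In 41BB- cells there were 6 of 8, with Gzma, Gzmb and Gzmc higher and Prf1, Srgn and Fasl lower, against 40.8% of all genes (22.6% higher and 18.2% lower). Over the whole 72 h 4 of 8 were called in 41BB+ cells, with Gzmb and Gzmc higher and Prf1 and Fasl lower, against 46.7% of all genes (23.4% higher and 23.4% lower). The 6 of 8 in 41BB- cells were Gzmb and Gzmc, higher, and Gzmm, Prf1, Nkg7 and Srgn, lower, against 47.9% of all genes (26.8% higher and 21.1% lower). The change differed between the populations in 1 of 8 genes from 0 to 24 h (23% of all genes), in 3 from 24 to 72 h (17.5%) and in 3 from 0 to 72 h (40.9%). None of these shares was tested. The genes called in both populations over an interval moved in the same direction in each.

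**Figure D2:**
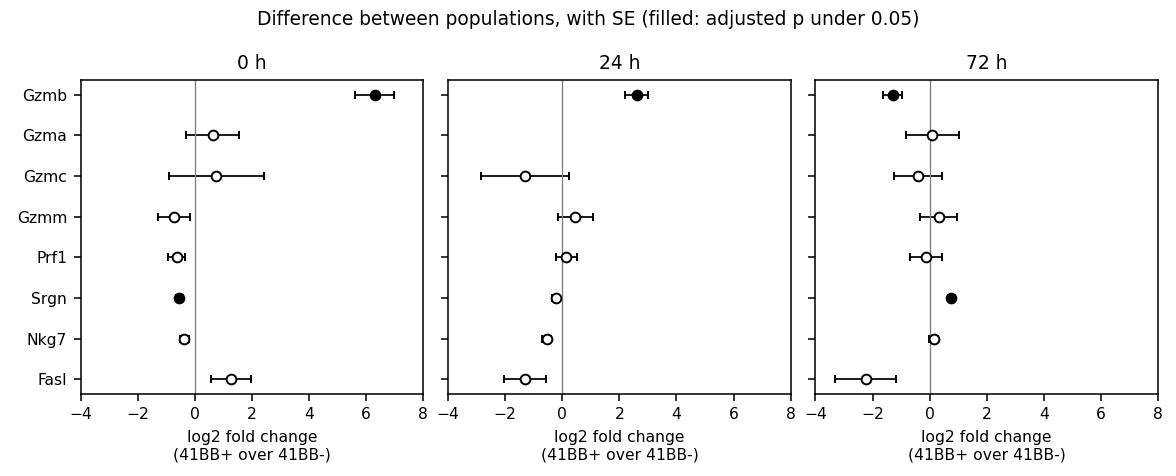
Fitted log2 fold change of 41BB+ over 41BB- cells (horizontal axes) with bars of 1 SE for the 8 tested genes (rows), in 1 panel each for 0, 24 and 72 h, filled where the adjusted p was under 0.05. Gzma at 24 h is left out because 41BB- cells had 0 counts, and Gzmb moves from 6.29 at 0 h through 2.60 at 24 h to -1.29 at 72 h while Srgn moves from -0.54 to 0.75.

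Compared per kilobase of exon length, the composition of the granule transcripts changed with time. At 0 h Nkg7, Srgn, Gzmb and Prf1 had levels of 80.0, 75.8, 47.6 and 15.5 CPM per kilobase in 41BB+ cells, against 103, 109, 0.578 and 24.1 in 41BB- cells. At 72 h Gzmb led in both populations, with a level of 169 ± 83.6 CPM per kilobase in 41BB+ cells and 421 ± 82.9 in 41BB- cells (SD, n = 3 each). Gzmb was 86.5 ± 8.57%, 96.9 ± 0.44% and 94.9 ± 0.892% of all counts of the 5 granzymes in 41BB+ cells at 0, 24 and 72 h. In 41BB- cells it was 6.22 ± 2.22%, 88.0 ± 0.752% and 97.7 ± 0.387% (SD, n = 3 each). Gzmb therefore made up most granzyme counts in every group but the 41BB- cells at 0 h, where Gzmm had the most. The ratio of Gzmb to Prf1 per kilobase was 3.12, 41.5 and 296 in 41BB+ cells and 0.0242, 6.20 and 878 in 41BB- cells at 0, 24 and 72 h, as means of 3 libraries, and at 72 h it rests on 2 to 11 Prf1 counts per library. The libraries at 72 h ran from 130 to 559 in 41BB+ cells and from 341 to 1841 in 41BB- cells and overlapped. All 9 genes together were 0.0364%, 0.0308% and 0.045% of library counts in 41BB+ cells, and 0.0412%, 0.0246% and 0.0758% in 41BB- cells.

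**Figure D3:**
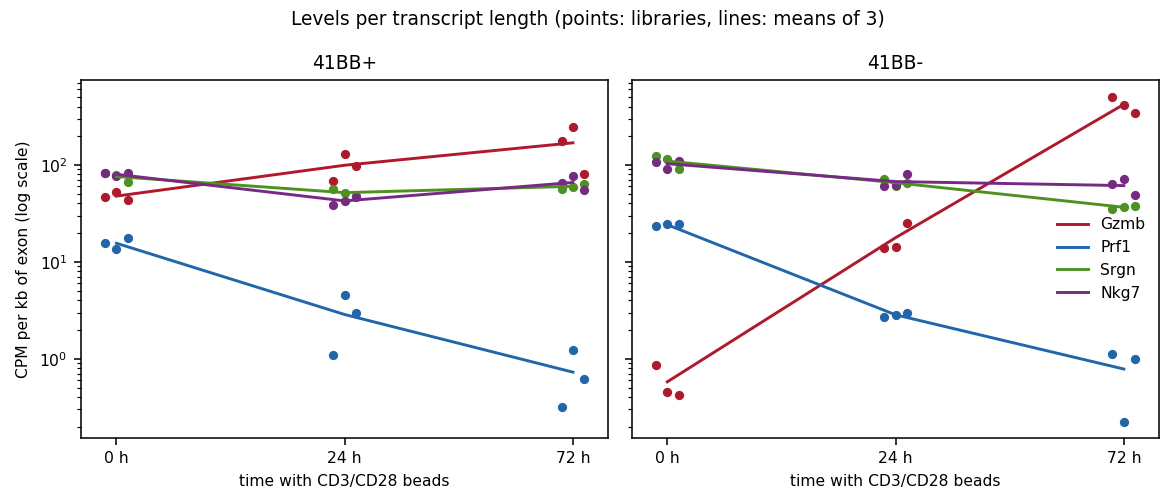
Levels of Gzmb, Prf1, Srgn and Nkg7 per kilobase of exon length (CPM per kilobase, log axis) by time in 41BB+ cells (left) and 41BB- cells (right), with 1 point per library and lines through the means of 3. Gzmb is the highest gene at 72 h in both panels, while Prf1 descends in both.

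The order of group means gave each gene a different course. For Gzmb the order was 41BB- at 72 h, 41BB+ at 72 h, 41BB+ at 24 h, 41BB+ at 0 h, 41BB- at 24 h and 41BB- at 0 h, and of these neighbours only the 41BB+ groups at 72 and 24 h overlapped. For Prf1 the order followed time, and the 2 populations overlapped at 24 h and at 72 h but not at 0 h. For Srgn the highest group was 41BB- cells at 0 h and the lowest 41BB- cells at 72 h, and 41BB+ cells lay between them at all times. For Gzmc, Gzmk and Gzmm all neighbours among the 6 groups overlapped. They did so at all steps but 1 for Gzma, where 41BB- cells at 0 h and 41BB+ cells at 24 h were separate, and for Fasl, where 41BB- and 41BB+ cells at 72 h were.

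Genes that move and release granules were, where called, mostly lower in 41BB+ cells at 0 h, and many rose in both populations between 24 and 72 h. The list of exocytosis genes had 24 entries, of which 22 were tested. At 0 h 2 were higher and 8 lower in 41BB+ cells, with a median log2 fold change of -0.36 against 0.01 over all genes (22.2% of all genes higher, 17.3% lower). The count of 2 was 1 without replicate 2 of the 41BB+ cells or replicate 1 or 2 of the 41BB- cells. From 0 to 24 h 3 rose and 8 fell in 41BB+ cells (median -0.32 against -0.06; 18.1% of all genes higher, 16.5% lower), and 4 rose and 11 fell in 41BB- cells (median -0.45 against -0.07; 29.0% higher, 27.6% lower). From 24 to 72 h 14 rose and 2 fell in 41BB+ cells (median 0.70 against 0.03; 26.2% higher, 26.3% lower), and 9 rose and 0 fell in 41BB- cells (median 0.43 against 0.04; 22.6% higher, 18.2% lower), where 1 fell without replicate 2 of 24 h or replicates 1 or 3 of 72 h. The 8 that fell in 41BB+ cells by 24 h were 5 without replicate 1 of 24 h.

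Stx11, a syntaxin needed for granule fusion whose loss in humans causes familial hemophagocytic lymphohistiocytosis, was an exception. It averaged 8.03, 31.7 and 21.8 CPM at 0, 24 and 72 h in 41BB+ cells and 3.12, 47.0 and 35.3 CPM in 41BB- cells. It was higher in 41BB+ cells at 0 h (log2 fold change 1.34, SE 0.33, adjusted p = 0.00148) and rose from 0 to 24 h in 41BB+ cells (2.02, SE 0.25, adjusted p = 2.08e-07) and 41BB- cells (3.82, SE 0.29, adjusted p = 4.53e-12). Lyst, the lysosomal trafficking regulator mutated in Chediak-Higashi syndrome, was lower in 41BB+ cells at 0 h (126 against 247 CPM, log2 fold change -0.99, SE 0.14, adjusted p = 1.67e-06). Dock8, an actin regulator of lymphocytes, was also lower there (360 against 618 CPM, -0.79, SE 0.10, adjusted p = 4.33e-07), as was Coro1a, an actin-binding coronin (703 against 940 CPM, -0.43, SE 0.11, adjusted p = 0.00216). In 41BB- cells Lyst, Dock8 and Coro1a fell from 0 to 24 h (log2 fold changes -1.45, -1.20 and -1.10) and then rose from 24 to 72 h (0.97, 0.50 and 1.11).

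The list of granule membrane proteins and granule proteases had 12 tested genes of 14. At 0 h 4 were higher and 2 lower in 41BB+ cells, with a median of -0.16 against 0.01 over all genes (22.2% of all genes higher, 17.3% lower). The lower count was 1 without replicate 1 of the 41BB+ cells and 4 with the block within each time, with RLE factors and with the compared groups alone. From 0 to 24 h 2 rose and 4 fell in 41BB+ cells (median -0.20 against -0.06; 18.1% higher, 16.5% lower) and 4 rose and 6 fell in 41BB- cells (median -0.41 against -0.07; 29.0% higher, 27.6% lower), and without replicate 3 of 0 h or replicate 1 of 24 h the 4 in 41BB+ cells became 2. Between 24 and 72 h 6 rose and 3 fell in 41BB+ cells (median 0.43 against 0.03; 26.2% higher, 26.3% lower), and 7 rose and 2 fell in 41BB- cells (median 0.54 against 0.04; 22.6% higher, 18.2% lower). Calr, a calcium-binding chaperone also found in cytotoxic granules, was higher in 41BB+ cells at 0 h, at 845 ± 20 against 298 ± 3.4 CPM (log2 fold change 1.49, SE 0.10, adjusted p = 3.81e-12). M6pr, a mannose 6-phosphate receptor of the kind that sorts granzymes to granules, was higher too (172 against 79.8 CPM, 1.10, SE 0.11, adjusted p = 7.03e-09). Both rose from 0 to 24 h in 41BB- cells, by log2 fold changes of 1.54 and 1.27. Ctsw, a cysteine protease of cytotoxic lymphocytes, was lowest at 24 h: its level was 86.7, 23.2 and 71.2 CPM in 41BB+ cells and 126, 47.1 and 60.9 CPM in 41BB- cells at 0, 24 and 72 h. It was lower in 41BB+ cells at 0 h (-0.55, SE 0.19, adjusted p = 0.0193) and rose from 24 to 72 h in 41BB+ cells (1.68, SE 0.21, adjusted p = 1.04e-07) and in 41BB- cells (0.52, SE 0.20, adjusted p = 0.0341). Slc37a3, a lysosomal membrane transporter, fell from 0 to 24 h in 41BB+ cells (-0.74, adjusted p = 0.00791) and in 41BB- cells (-1.25, adjusted p = 1.16e-05).

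Of the granzyme inhibitor list, 4 of 7 serpins were tested, and in both populations Serpinb9 and Serpinb6b had their highest mean at 24 h and Serpinb6a its lowest. At 0 h 2 were higher and 1 lower in 41BB+ cells (median log2 fold change 0.27 against 0.01 over all genes; 22.2% of all genes higher, 17.3% lower). From 0 to 24 h 3 rose and 1 fell in 41BB+ cells (median 0.98 against -0.06; 18.1% higher, 16.5% lower), and 2 rose and 1 fell in 41BB- cells (median 1.47 against -0.07; 29.0% higher, 27.6% lower). From 24 to 72 h 1 rose and 2 fell in each population, with a median of -0.40 against 0.03 in 41BB+ cells (26.2% higher, 26.3% lower) and -0.13 against 0.04 in 41BB- cells (22.6% higher, 18.2% lower). The 2 at 0 h were 1 without replicate 2 of the 41BB- cells, the 3 were 1 without replicate 2 of 0 h or replicate 3 of 24 h, and the 1 that fell in 41BB+ cells was 0 without replicate 3 of 0 h. Serpinb9, the mouse inhibitor of granzyme B, averaged 32.2, 66.9 and 9.40 CPM at 0, 24 and 72 h in 41BB+ cells and 11.4, 62.7 and 9.54 CPM in 41BB- cells. It was higher in 41BB+ cells at 0 h (log2 fold change 1.48, SE 0.42, adjusted p = 0.0104) and fell from 24 to 72 h in 41BB+ cells (-2.74, SE 0.42, adjusted p = 2.92e-05) and 41BB- cells (-2.57, SE 0.42, adjusted p = 9.07e-05), while Gzmb was at its highest at 72 h. Its 41BB+ counts at 72 h were 9, 19 and 75, the last in the library with the lowest Gzmb. Serpinb6b was higher in 41BB+ cells at 0 h (45.1 against 13.1 CPM, 1.77, SE 0.24, adjusted p = 5.52e-07) and Serpinb6a lower (20.8 against 39.4 CPM, -0.93, SE 0.21, adjusted p = 0.00082). Serpinb6a fell to 11.5 CPM in 41BB+ cells and 11.3 CPM in 41BB- cells at 24 h, where Serpinb6b was highest, at 78.1 and 81.8 CPM. Serpina3f had at most 20 counts per library and was called in 41BB+ cells between 0 and 24 h (adjusted p = 0.0134), from a group with 1 count at 0 h.

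The Fas pathway list had all 10 genes tested. At 0 h 2 were higher in 41BB+ cells and 3 lower, with a median of -0.20 against 0.01 over all genes (22.2% of all genes higher, 17.3% lower). From 0 to 24 h 2 rose and 0 fell in 41BB+ cells (median 0.06 against -0.06; 18.1% higher, 16.5% lower), and 2 rose and 2 fell in 41BB- cells (median 0.06 against -0.07; 29.0% higher, 27.6% lower). Between 24 and 72 h 5 rose and 3 fell in 41BB+ cells (median 0.03 against 0.03; 26.2% higher, 26.3% lower) and 3 rose and 3 fell in 41BB- cells (median 0.11 against 0.04; 22.6% higher, 18.2% lower). Without 1 library some counts moved: the 2 that rose in 41BB+ cells by 24 h were 1 without replicate 3 of 0 h or replicate 2 of 24 h, the 2 that fell in 41BB- cells were 1 without replicate 2 or 3 of 0 h or replicate 1 or 3 of 24 h, the 5 were 3 without replicate 1 or 3 of 24 h or replicate 3 of 72 h, and the 3 that rose in 41BB- cells were 1 without replicate 3 of 72 h. Bid, a target of granzyme B and caspase-8, was higher in 41BB+ cells at 0 h (42.5 against 20.5 CPM, log2 fold change 1.04, SE 0.17, adjusted p = 1.68e-05). Casp8, the initiator caspase of this route, was lower (114 against 168 CPM, -0.57, SE 0.14, adjusted p = 0.0018), as was Cflar, its inhibitor (105 against 168 CPM, -0.69, SE 0.13, adjusted p = 0.000124).

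**Figure D4:**
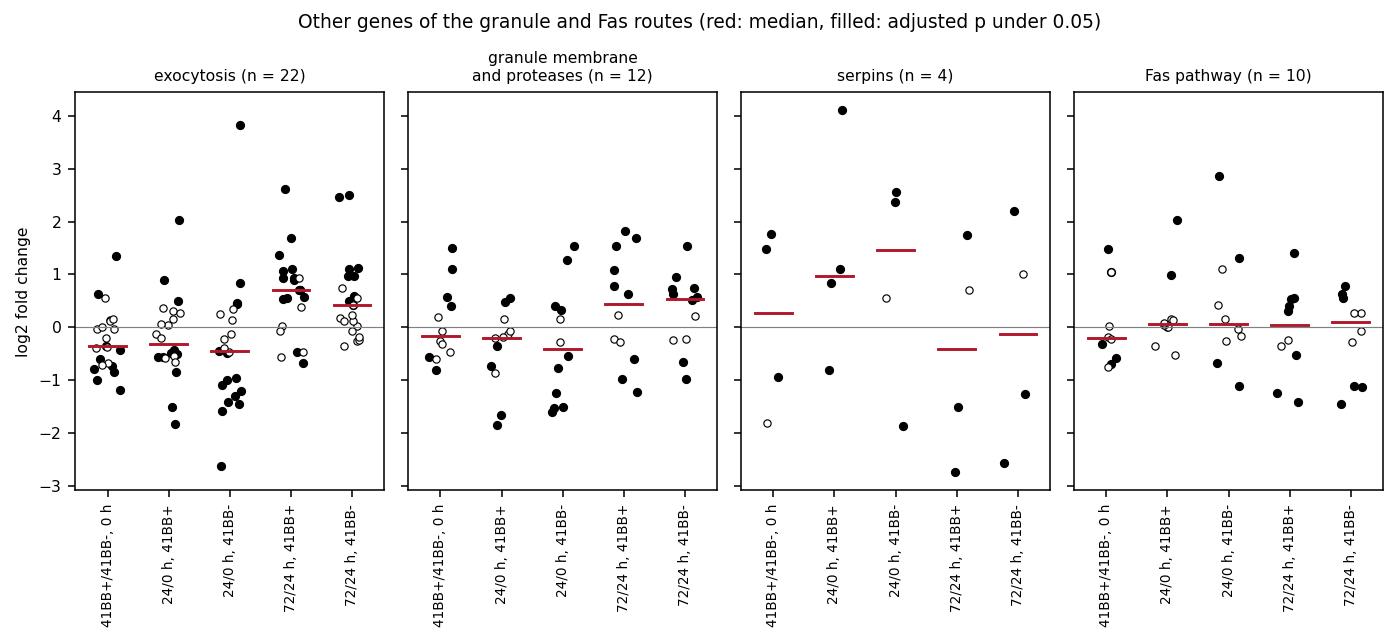
Log2 fold change (vertical axes) of each tested gene of 4 lists (1 panel each) in 5 comparisons (columns), as points filled where the adjusted p was under 0.05, with the list median in red. In the exocytosis panel the medians are -0.36 for 41BB+ against 41BB- cells at 0 h and 0.70 and 0.43 for 72 h against 24 h in 41BB+ and 41BB- cells.

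The tested genes whose course over the 6 group means was most like that of a member were found from log2(mean CPM + 1) after removing each gene's own mean. For Gzmb the nearest of 10346 candidates were Ccnb2, a mitotic cyclin, Kif18b, a mitotic kinesin, and Mpp2, at mean absolute differences of 1.01, 1.04 and 1.05 log2 units, against a range of 8.37 in Gzmb itself. Ccnb2 averaged 1.80, 31.2 and 92.8 CPM in 41BB+ cells and 0.41, 9.61 and 117 CPM in 41BB- cells, and in 41BB+ cells at 0 h it was below the 68.4 CPM of Gzmb. For Prf1 they were Usp18 (0.26), Fosb (0.30) and AW011738 (0.36), over a Prf1 range of 4.46. Fosb, a subunit of AP-1, averaged 12.6, 4.59 and 1.01 CPM in 41BB+ cells and 41.5, 3.12 and 0.675 CPM in 41BB- cells. For Fasl they included Ube2cbp and Ppp1r3e (0.16 to 0.18), for Gzma Gstp3, Sash3 and Ccr2 (0.18 to 0.20), and for Gzmc Hip1, Arhgef25 and Dkkl1 (0.14 to 0.18). The measure covers 6 group means of the same libraries and carries no test.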

How the data were processed

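Per the labels' protocols, libraries were made from total RNA with Takara's SMARTer Stranded kit. The submitters' processing notes name FastQC 0.11.9, Trimmomatic 0.38, HISAT2 2.2.1, featureCounts and the build GRCm38. The authors deposited raw whole-number counts of 55487 genes in 18 libraries. How strand and reads with several matches were treated is not stated in those sources. Gene names and exon lengths came from GENCODE M21, and upstream windows from RefSeq on GRCm38.p6.

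CPM values were computed from the raw counts and the sum of each library. Genes were filtered with filterByExpr by group (minimum count 10, minimum total 15) and fitted in all 18 libraries with edgeR 4.0.16 (R 4.3.3): TMM factors, robust quasi-likelihood F-test, 1 mean per group, Benjamini-Hochberg adjustment over all 13150 genes, threshold 0.05. Every adjusted p not given to another tool is from this test. The procedure was tested on simulated counts. Log2 fold changes are 41BB+ over 41BB-, or later over earlier. Each SE was worked back from the test, as the size of the log2 fold change divided by the square root of its F statistic. Folds against 0 counts use 3 counts over the group, and exact 95% intervals cover only the error of counting reads, which carry no molecular identifiers here. The p-values rest on the spread between libraries of the same group. In the main fit this spread was estimated over all 6 groups together and drawn toward that of other genes. It is therefore not the spread of the compared libraries alone.

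The results were repeated by DESeq2 1.42.0, with RLE factors, with no filter, with the experiment number as a block over all times or within each time, with the compared groups alone, by limma 3.58.1 voom with quality weights, and without each library in turn. The numbers in the titles name an experiment and were treated as pairing 41BB+ with 41BB- libraries of 1 time. The 9 pairs of the same number had a median correlation of deviations of 0.107 over 12686 autosomal genes (-0.043 to 0.243, 5 above 0.1). The median was -0.0632 in 18 other pairs. Deviations were taken from the mean of each group, so values of same-number and other pairs offset each other. The comparison is therefore no independent check of the pairing. At 0 h the same-number values were -0.0193, 0.0661 and -0.0430.

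All 9 genes are described whatever their test. From each of the other lists up to 4 genes were named, those with the smallest adjusted p between populations at 0 h or from 0 to 24 h in 41BB- cells. Genes of like course are the 3 nearest with at least 5 CPM in 1 group, for members whose range was at least 2 log2 units, leaving out predicted genes and antigen receptor segments; some genes that these rules name are not reported here. The members, lists and comparisons were chosen with earlier results of these data known.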

Additional observations from a re-analysis of the deposited data

Results flagged for a closer look

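In 7 cases the change over culture differed between the populations by the test of the difference (edgeR's quasi-likelihood test, adjusted over all genes). These were 1 of the 8 tested genes from 0 to 24 h, 3 from 24 to 72 h and 3 from 0 to 72 h. Of all genes, 23%, 17.5% and 40.9% were called in these intervals. Values are the 41BB+ change minus the 41BB- change on the log2 scale. For Gzmb they were -3.69 from 0 to 24 h (adjusted p = 0.0128), -3.89 from 24 to 72 h (adjusted p = 0.000177) and -7.58 from 0 to 72 h (adjusted p = 3.22e-06), so this mRNA rose by a smaller fold in 41BB+ cells, which started higher. In CPM the mean went from 68.4 to 142 in 41BB+ cells and from 0.83 to 25.5 in 41BB- cells by 24 h, the larger gain being in 41BB+ cells. For Srgn the log2 values were 0.98 from 24 to 72 h (adjusted p = 0.000201) and 1.30 from 0 to 72 h (adjusted p = 5.52e-07). For Nkg7 the value was 0.69 from 24 to 72 h (adjusted p = 0.0369), and for Fasl it was -3.50 from 0 to 72 h (adjusted p = 0.031), on at most 32 counts per library. The calls of Nkg7 and Fasl, and that of Gzmb from 0 to 24 h, were lost in some of the alternative runs, as given above.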

How the results depend on the processing

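The calls of Gzmb at 0 and 24 h and of Srgn at 0 and 72 h between populations, and the falls of Prf1 in both populations, held under every alternative run. Of the count of 8 tested genes called between populations, the value at 0 h was 4 with the replicate block within each time, with the compared groups alone and under limma voom (2 in the fit reported). At 24 h it was 2 with the replicate block within each time (1 reported). With that block 41.7% of all genes were called at 0 h and 4.39% at 24 h, against 39.5% and 2.75% in the fit reported. At 72 h the count was 1 with no filter and with the compared groups alone (2 reported). For the other alternative runs the share of all genes called was not computed, so their counts have no background beside them. Leaving out 1 library gave 2 to 3 genes at 0 h, 1 at 24 h and 1 to 2 at 72 h. From 0 to 24 h it gave 3 to 5 in 41BB+ cells and 5 to 7 in 41BB- cells. From 24 to 72 h it gave 3 to 6 and 5 to 6, and over the whole 72 h 4 and 6. For the difference in change it gave 1 to 2 from 0 to 24 h, 2 to 3 from 24 to 72 h and 2 to 4 from 0 to 72 h. For the exocytosis list, added after the data were seen, leaving out 1 library gave 1 to 2 higher genes at 0 h, 5 to 7 lower from 0 to 24 h in 41BB+ cells and 0 to 1 lower from 24 to 72 h in 41BB- cells, and the last was 1 with no filter and with the compared groups alone.

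The replicate block over all times called Srgn from 24 to 72 h in 41BB+ cells (0.29, adjusted p = 0.0462), lost Gzma from 0 to 24 h in 41BB+ cells (-2.70, adjusted p = 0.0657) and turned Gzma at 72 h (-0.33). The block within each time added Prf1 and Nkg7 at 0 h, Nkg7 at 24 h and Nkg7 from 0 to 72 h (difference in change 0.52, adjusted p = 0.0295). The last was also called by DESeq2 (0.60, adjusted p = 0.0434), with RLE factors (0.60, 0.0329) and with the compared groups alone (0.61, 0.0340). It was called in 6 of 12 fits without 1 library as well. Neither block changed another member's call. Values that were never called changed sign as follows: Gzma between populations at 0 h under voom (-0.035) and at 72 h with the block within each time (-0.18) and under voom (-0.66), Nkg7 from 24 to 72 h in 41BB- cells by DESeq2 (-0.0066), with RLE factors (-0.0059), with no filter (-0.10) and with the groups alone (-0.022), and the Gzmc difference in change from 24 to 72 h under voom (-0.046). Leaving out 1 library turned uncalled values of Gzma, Gzmc, Gzmm, Prf1 and Nkg7. Between populations the ranges were -0.99 to 1.05 (Gzma) and -2.77 to 3.51 (Gzmc) at 0 h, 0 to 4.39 (Gzma) and -0.36 to 0.50 (Prf1) at 24 h, and -0.61 to 0.69 (Gzma), -1.11 to 0.21 (Gzmc), -0.24 to 0.94 (Gzmm) and -0.65 to 0.29 (Prf1) at 72 h. Over time they were -3.50 to 2.65 (Gzmc, 0 to 24 h), -0.96 to 0.14 (Gzmm, 24 to 72 h), -0.99 to 1.37 (Gzma, 0 to 72 h) and -0.22 to 0.00056 (Nkg7, 0 to 72 h) in 41BB+ cells, and -0.81 to 0.069 (Gzmm) and -0.17 to 0.090 (Nkg7) from 24 to 72 h in 41BB- cells. For differences in change they were -0.61 to 4.81 (Gzma) and -4.83 to 1.45 (Gzmc) from 0 to 24 h, -4.44 to 0.16 (Gzma), -0.70 to 0.48 (Gzmm) and -0.78 to 0.30 (Prf1) from 24 to 72 h, and -1.21 to 1.15 (Gzma) and -3.87 to 2.41 (Gzmc) from 0 to 72 h. The cause was not tested. With no filter, all genes from 24 to 72 h in 41BB- cells shifted by a median of -0.114. Counts of 0 to 32 per library limit Gzma, Gzmk, Gzmm, Fasl and, before 72 h, Gzmc.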
